A study of Mus musculus with 10 samples.

Results

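Reelin, its cytoplasmic adaptor and its receptors were examined in the cortical hem (CH), a signaling center along the dorsal midline of the embryonic telencephalon. The members are 4 genes, Reln, Dab1, Vldlr and Lrp8, of 52227 genes in the count table, and are found in it by gene symbol. No measured level enters that rule, but the genes were proposed with earlier results of these data known. RNA came from CH that had been laser-captured from frozen coronal sections at embryonic day 13.5, with the sections of an embryo pooled into 1 library. The borders of the CH had been read from sections between these, stained for Lmx1a protein. One group was 5 wild-type embryos and the other was 5 Lmx1a-/- embryos carrying the dreherJ allele in every cell from conception, so that no cell type was targeted in particular. Lmx1a is a LIM-homeodomain transcription factor of the CH and the choroid plexus. The comparison asks which CH genes differ when this factor is lost.

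Reelin is a large secreted glycoprotein that directs the positioning of migrating neurons and is made in the embryonic cortex mainly by Cajal-Retzius (CR) cells, many of which arise in the CH. It binds to 2 receptors of the low-density lipoprotein (LDL) receptor family, the very-low-density lipoprotein receptor encoded by Vldlr and apolipoprotein E receptor 2 encoded by Lrp8. Binding leads Src-family kinases to phosphorylate Dab1, the adaptor held at the receptor tails, which passes the signal to the cytoskeleton and to adhesion molecules and is then degraded. Reelin is also cut outside the cell by Adamts proteases, which limits its action.

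Library totals lay between 19145952 and 36462780 counts. Levels below are normalized CPM, each gene's count scaled to a library of common size, after correction by the trimmed mean of M values (TMM), and the error of a mean is the SD over 5 embryos. Lmx1a mRNA lay at 79.8, 80, 45.6, 59.7 and 90.8 CPM in wild-type embryos 1 to 5 and at 89.9, 102, 122, 145 and 111 CPM in mutant embryos 1 to 5. The transcript was higher in mutants at an FDR under 0.1 (log2 fold change 0.68 ± 0.174 SE, edgeR FDR = 0.0658). Mutant embryos 2 to 5 lay above every wild-type embryo. The Lmx1a count is therefore no check of the genotype label for this allele. Xist, the RNA that coats the inactive X chromosome in female cells, was at 4515 to 5127 CPM before TMM scaling in wild-type embryos 2 to 5. It was at 0.982 CPM in wild-type embryo 1 and at 0.157 to 1.1 CPM in the 5 mutants, so high Xist occurred in wild-type libraries only. Apart from wild-type embryo 1, it and the genotype cannot be told apart. In captured tissue, fewer cells of a type and less RNA per cell cannot be told apart.

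Sequence dense in CG dinucleotides precedes the Reln start and a Dab1 start. These stretches are printed to show it, beside another Dab1 start and a Vldlr start of different composition. They are the 250 bases before the RefSeq transcript start in GRCm38.p6, written 5′ to 3′ on the gene's strand with every CG in capitals. The lines give Reln (chr5:22344706-22344955, minus strand), the inner Dab1 start (chr4:104367288-104367537, plus strand), the outer Dab1 start (chr4:103619250-103619499, plus strand) and the first Vldlr start (chr19:27216234-27216483, plus strand).
Reln: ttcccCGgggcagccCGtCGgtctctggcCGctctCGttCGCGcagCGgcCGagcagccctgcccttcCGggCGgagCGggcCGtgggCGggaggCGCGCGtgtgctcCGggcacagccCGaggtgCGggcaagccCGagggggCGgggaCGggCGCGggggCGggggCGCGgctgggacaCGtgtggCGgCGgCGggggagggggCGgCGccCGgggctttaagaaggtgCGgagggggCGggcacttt
Dab1 inner: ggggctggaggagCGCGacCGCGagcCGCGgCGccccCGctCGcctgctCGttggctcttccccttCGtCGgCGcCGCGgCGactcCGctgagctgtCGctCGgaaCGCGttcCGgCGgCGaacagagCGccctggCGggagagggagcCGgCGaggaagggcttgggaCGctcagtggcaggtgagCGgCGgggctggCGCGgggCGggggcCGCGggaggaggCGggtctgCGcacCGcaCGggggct
Dab1 outer: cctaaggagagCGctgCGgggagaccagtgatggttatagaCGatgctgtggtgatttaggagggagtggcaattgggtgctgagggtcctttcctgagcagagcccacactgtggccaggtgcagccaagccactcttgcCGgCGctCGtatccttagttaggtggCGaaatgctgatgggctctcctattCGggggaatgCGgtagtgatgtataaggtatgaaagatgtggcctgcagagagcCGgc
Vldlr first: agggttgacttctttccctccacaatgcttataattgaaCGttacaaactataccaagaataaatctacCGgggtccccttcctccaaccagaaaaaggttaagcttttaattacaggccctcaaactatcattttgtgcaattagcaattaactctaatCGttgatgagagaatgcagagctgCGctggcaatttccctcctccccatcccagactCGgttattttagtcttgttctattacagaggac
The Reln stretch was 80% G and C with 37 CG, and the inner Dab1 stretch was 78% G and C with 40 CG. Over all 32851 promoters in the RefSeq table the medians were 52.4% and 6 CG, and 97.8% of promoters had fewer CG than Reln and 98.7% fewer than the inner Dab1 start. High CG density did not extend to the outer Dab1 start, with 56.4% G and C and 10 CG, nor to the first Vldlr start, with 41.6% and 5 CG. The second Vldlr start had 66.4% G and C and 18 CG, and the 3 Lrp8 starts had 52.8% to 62.4% and 2 to 18 CG. A count of 18 CG was above that of 78.3% of promoters. Counts per gene do not show which start was used in the CH. Whether CG density goes with the difference between genotypes was not tested. The letters TAATTA, a palindromic core bound by many homeodomain proteins and therefore the same on both strands, were found 1 time among these 8 stretches, in the first Vldlr stretch with the last base 137 bases before the start. TAATTA occurred in 4.84% of all promoters of this length.

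Reln was lower in the Lmx1a-/- CH. The gene (ENSMUSG00000042453) lies on the minus strand of chromosome 5 at 21884454 to 22344702 of GRCm38 and spans 460249 bases. Its level in wild-type embryos 1 to 5 was 202, 265, 126, 142 and 260 CPM, and in mutant embryos 1 to 5 it was 95.7, 133, 107, 63.4 and 80 CPM. Wild-type embryos 3 and 4 were the low libraries of their group, and 4 of 5 mutants lay below every wild-type embryo. The groups touched at 1 point, where mutant embryo 2 was slightly above wild-type embryo 3. The means were 199 ± 64.7 and 95.8 ± 26.4 CPM (SD, n = 5 each), a log2 fold change of -1.06 ± 0.228 (SE), or 0.481-fold with a 95% interval of 0.342 to 0.675. The difference passed the threshold of the study, an FDR under 0.1 (edgeR quasi-likelihood test, Benjamini-Hochberg FDR = 0.0308), and the gene ranked 304 of 21664 tested genes by p. Over all tested genes 4.02% were called in either direction, 2.29% were lower and 1.72% were higher, and the median log2 fold change was -0.005.

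Dab1, the adaptor, was also lower, without any overlap between genotypes. Dab1 (ENSMUSG00000028519) lies on the plus strand of chromosome 4 at 103619359 to 104744844 and spans 1125486 bases, more than any other member. The wild-type levels, in the order of embryos 1 to 5, were 140, 124, 136, 117 and 149 CPM. The mutant levels in that order were 85.1, 96.7, 65.3, 64.2 and 92.3 CPM. All 5 mutants lay below all 5 wild-type embryos, a separation that 4.44% of tested genes showed. The wild-type values were tight, with a coefficient of variation of 9.63% against 32.5% for Reln. The means were 133 ± 12.8 and 80.7 ± 15.1 CPM (SD, n = 5 each), and the log2 fold change was -0.73 ± 0.122 (SE), or 0.604-fold with a 95% interval of 0.503 to 0.725 (edgeR FDR = 0.00784). Dab1 ranked 121 by p.

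Both calls held in each of the 10 fits that left out 1 embryo, with FDR up to 0.0836 for Reln and up to 0.0229 for Dab1. They were lost when wild-type embryo 1 alone, the wild-type library with low Xist, stood against the 5 mutants. The log2 fold changes were then -1.09 for Reln (edgeR FDR = 0.211) and -0.81 for Dab1 (edgeR FDR = 0.223), with the spread of that lone library taken from the mutants. In wild-type embryo 1 itself, both Reln and Dab1 were above all 5 mutants.

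The receptors did not pass the test. Vldlr (ENSMUSG00000024924, chromosome 19, 27216484 to 27254231, plus strand) was measured at 94.3, 130, 69.8, 92.6 and 109 CPM in wild-type embryos 1 to 5 and at 77.5, 102, 116, 132 and 116 CPM in mutant embryos 1 to 5. The genotypes overlapped over most of their range, and 1 mutant was above all wild-type embryos. The means were 99.3 ± 22.3 and 109 ± 20.4 CPM (SD, n = 5 each), with a log2 fold change of 0.13 ± 0.162 (SE, edgeR FDR = 0.747). The 95% interval of the fold, 0.859 to 1.39, does not reach the fitted fold of Reln or of Dab1.

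Lrp8 (ENSMUSG00000028613, chromosome 4, 107802261 to 107876840, plus strand) was measured at 305, 353, 210, 241 and 342 CPM in wild-type embryos 1 to 5 and at 301, 340, 335, 403 and 390 CPM in mutant embryos 1 to 5. Wild-type embryos 3 and 4 were again the low libraries, and 2 mutants were above all wild-type embryos. The means were 290 ± 62.7 and 354 ± 42.3 CPM (SD, n = 5 each), with a log2 fold change of 0.29 ± 0.137 (SE, edgeR FDR = 0.321). The 95% interval of the fold was 0.994 to 1.5, so these libraries leave room for an increase of that size. Of the 4 members, 2 were thus called, both lower, where 4.02% of all tested genes were called and 2.29% were lower. The members were proposed with earlier results known, so this count is a description. All 4 had at least 1779 counts in every library.

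**Figure D1:**
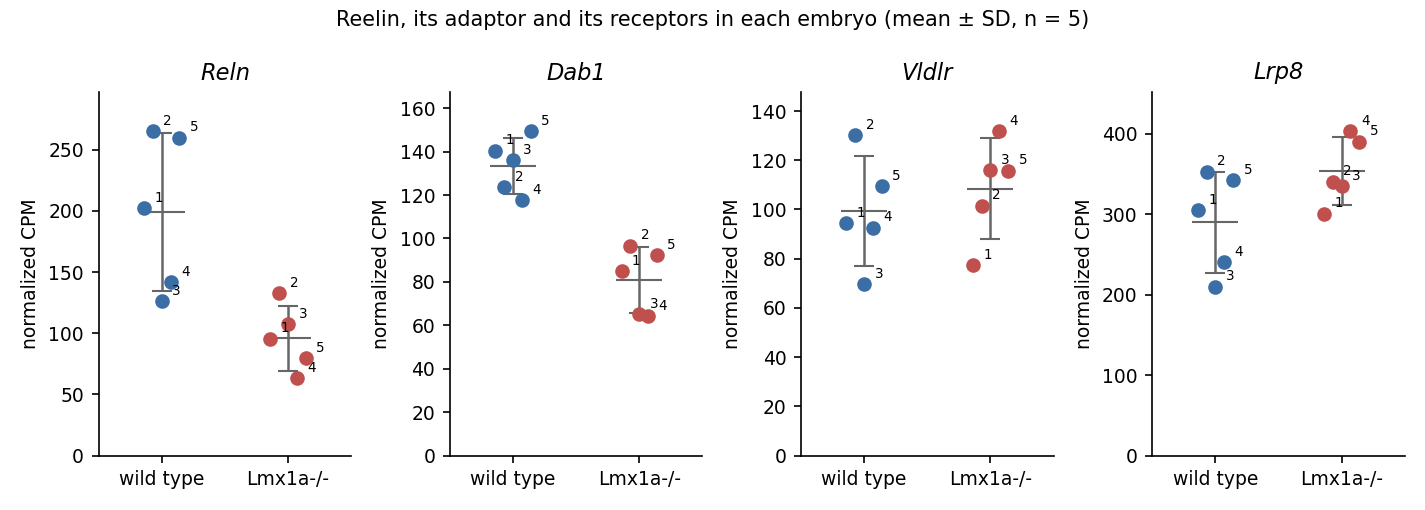
Normalized CPM of Reln, Dab1, Vldlr and Lrp8 (vertical axes, from 0) in 5 wild-type (blue) and 5 Lmx1a-/- (red) embryos, numbered by embryo, with the mean and SD in grey. The Dab1 groups are separate, the Reln groups meet at wild-type embryo 3 and mutant embryo 2, and the receptor groups overlap.

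The ratio of 2 members within a library does not depend on how libraries are scaled, and it was used to describe ligand and adaptor against the receptors. The ratios reuse the counts behind the calls above, and the members were proposed with earlier results known. Their p values are therefore not separate support for those calls. All 6 pairs of members were compared with a two-sided exact permutation test over all regroupings of the embryos, whose smallest p is 0.00794, and p was adjusted over the 6 pairs. Ratios are of CPM per kilobase of the principal transcript. The Reln to Lrp8 ratio was 0.258, 0.293, 0.234, 0.23 and 0.296 in wild-type embryos 1 to 5 and 0.124, 0.152, 0.125, 0.0612 and 0.0798 in mutant embryos 1 to 5. Every wild-type library was above every mutant library, and the wild-type values were close to each other although Reln itself ranged from 126 to 265 CPM there. The geometric means were 0.261 and 0.103, a log2 difference of -1.34 (exact permutation test, adjusted p = 0.0159).

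The Reln to Vldlr ratio separated the genotypes in the same way. It was 1.46, 1.39, 1.23, 1.04 and 1.62 in wild-type embryos 1 to 5 and 0.841, 0.889, 0.631, 0.328 and 0.471 in mutant embryos 1 to 5. On this scale ligand RNA exceeded that of Vldlr in 5 of 5 wild-type libraries and was below it in 5 of 5 mutant libraries. This crossing depends on the length used. Over all annotated exons merged, the wild-type mean was 8.39 for Reln and 9.86 for Vldlr, in CPM per kilobase. The log2 difference between genotypes, which is the same on either length, was -1.17 (exact permutation test, adjusted p = 0.0159).

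Dab1 also differed against each receptor. The Dab1 to Lrp8 ratio was 0.303 to 0.559 in wild type and 0.137 to 0.245 in mutants, with no overlap and a log2 difference of -1.05 (exact permutation test, adjusted p = 0.0159). The Dab1 to Vldlr ratio was 1.44 to 2.94 in wild type and 0.735 to 1.66 in mutants, and these ranges overlapped. Its log2 difference was -0.88 (exact permutation test, adjusted p = 0.0357), and the call was lost without wild-type embryo 1, 4 or 5 (adjusted p = 0.0595 for each, exact permutation test) and without wild-type embryo 3 (adjusted p = 0.0714, exact permutation test).

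Within the pair that was lower and within the pair of receptors, the ratios did not pass. The Reln to Dab1 ratio was 0.65, 0.967, 0.418, 0.545 and 0.785 in wild-type embryos 1 to 5 and 0.508, 0.619, 0.742, 0.446 and 0.391 in mutant embryos 1 to 5. These values were mixed, with a log2 difference of -0.29 (exact permutation test, adjusted p = 0.294), so the larger fitted fold of Reln was not distinguished from that of Dab1. The Vldlr to Lrp8 ratio was 0.177 to 0.22 in wild type and 0.147 to 0.198 in mutants, with a log2 difference of -0.17 (exact permutation test, adjusted p = 0.143).

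**Figure D2:**
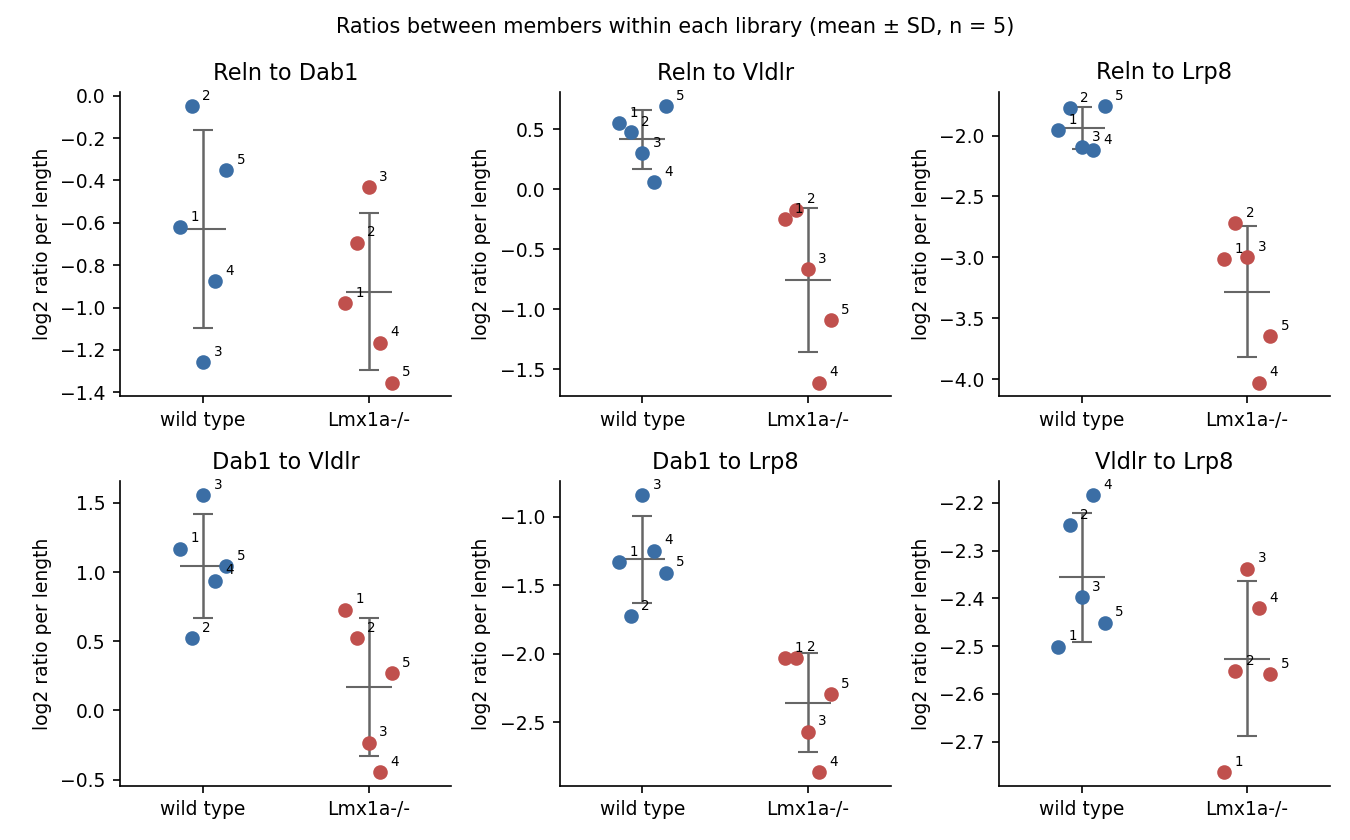
The log2 ratio per length of each pair of members (vertical axes, which do not start at 0) in every wild-type (blue) and Lmx1a-/- (red) library, numbered by embryo, with mean and SD in grey. The genotypes are separate for Reln to Vldlr, Reln to Lrp8 and Dab1 to Lrp8, and overlap for the other 3 pairs.

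Levels of different genes can be compared only per length, and the length of the longest principal coding transcript in the annotation was used, 11699 bases for Reln, 5278 for Dab1, 7971 for Vldlr and 4555 for Lrp8. In CPM per kilobase, wild-type means were 63.7 ± 13.8 for Lrp8, 25.3 ± 2.43 for Dab1, 17 ± 5.53 for Reln and 12.5 ± 2.8 for Vldlr (SD, n = 5). In mutants they were 77.7 ± 9.28 for Lrp8, 15.3 ± 2.87 for Dab1, 13.6 ± 2.56 for Vldlr and 8.19 ± 2.26 for Reln. Lrp8 was the highest member in all 10 libraries. It stood apart from the rest in both genotypes, while the ranges of the other neighbours in these orders overlapped. The place of Reln depends on the length used: over all annotated exons merged, which includes retained introns, the wild-type mean of Reln was 8.39 and that of Vldlr 9.86 CPM per kilobase. Differences between genotypes are the same on either length.

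Embryos of 1 genotype differed in an ordered way. From lowest to highest, the wild-type embryos ran 3, 4, 1, 5, 2 for Reln, for Vldlr and for Lrp8 alike, and 4, 2, 3, 1, 5 for Dab1. Among mutants the order was 4, 5, 1, 3, 2 for Reln and 1, 2, 5, 3, 4 for Vldlr, so the shared wild-type order did not recur there. With each genotype centred on its mean, Pearson's r of log2 CPM over the 10 libraries was 0.88 for the receptors Vldlr and Lrp8. It was 0.48 for Reln and Lrp8, 0.38 for Reln and Dab1 and 0.32 for Reln and Vldlr. These values pool genotypes that differed: mutant embryo 4 was lowest for Reln and highest for both receptors, while wild-type embryos shared 1 order. Dab1 had r of -0.34 with Vldlr and 0.01 with Lrp8. These are descriptions of 10 libraries that share their dissection, depth and scaling.

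CR cells are the main known source of reelin at this age, and Reln was set against 10 other CR markers. Of these, 9 were tested and Calb2, which encodes calretinin, did not reach the count filter, with 0 to 14 counts per library. Trp73, which encodes the transcription factor p73 needed for CR cell survival, was lower, with 82.1 ± 17.5 CPM in wild type and 45.6 ± 9.74 in mutants (SD, n = 5 each, log2 fold change -0.85, edgeR FDR = 0.0208). Lhx1, a LIM-homeodomain factor, was lower, from 17.4 ± 4.98 to 6.76 ± 2.62 CPM (SD, n = 5 each, log2 fold change -1.36, edgeR FDR = 0.021). Lhx5, its close relative, was higher, from 1.5 ± 0.81 to 5.38 ± 2.63 CPM (SD, n = 5 each, log2 fold change 1.86, edgeR FDR = 0.0324). The list thus held 2 lower and 1 higher gene of 9 tested (22.2% and 11.1%, against 2.29% and 1.72% of all genes). Its median log2 fold change was -0.09, and its summed level was 293 to 368 CPM in wild type and 214 to 319 CPM in mutants.

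Reln differed by more than the average of these markers. Its log2 CPM minus the mean log2 CPM of the 9 markers was 3.02, 3.50, 2.60, 2.65 and 3.38 in wild-type embryos 1 to 5 and 1.92, 2.85, 2.32, 1.88 and 2.19 in mutant embryos 1 to 5. The genotypes overlapped through mutant embryo 2, and the difference in means was -0.80 (two-sided exact permutation test, p = 0.0238). Without Lhx5, the marker that was higher, the difference was -0.53 (exact permutation test, p = 0.0714) and no longer passed 0.05. This alternative was chosen after seeing the data.

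Against single markers, the log2 change of Reln was below that of 4 of 9. Against Ebf2, an early B-cell factor, the difference in log2 change was -0.96 (exact permutation test, adjusted over 9 markers p = 0.0238). Against Nhlh2, a helix-loop-helix factor, the difference was -1.08 (exact permutation test, adjusted p = 0.0238), and against Ebf3 it was -1.13 (exact permutation test, adjusted p = 0.0358). Against Lhx5 it was -2.89 (exact permutation test, adjusted p = 0.0238). For Ebf1 (-0.96) and the chemokine receptor gene Cxcr4 (-0.68) the adjusted p was 0.119 and 0.0715 in the same exact permutation test. Reln was not distinguished from Trp73 (-0.19), Lhx1 (0.38) or Ndnf (0.34), with adjusted p of 0.531 to 0.667 (exact permutation test), and with 5 embryos a group these tests leave room for differences of similar size.

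**Figure D3:**
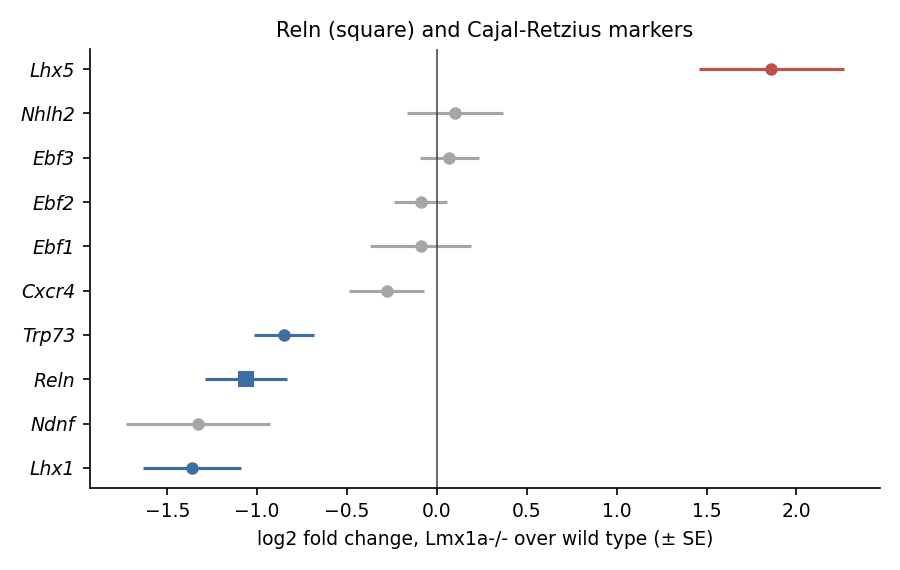
Log2 fold change of Lmx1a-/- over wild type (horizontal axis, ± SE) for Reln (square) and the 9 tested CR markers (circles), blue where lower, red where higher and grey where the edgeR FDR was 0.1 or more. Reln at -1.06 sits among Trp73, Ndnf and Lhx1, while both Ebf2 and Ebf3 lie near 0.

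Markers of other cells also differed between libraries. The summed level of the choroid plexus list, an epithelium that borders the CH, was 393, 423, 85.7, 182 and 366 CPM in wild-type embryos 1 to 5 and 118, 131, 181, 186 and 170 CPM in mutant embryos 1 to 5. Wild-type embryos 3 and 4, the low libraries for Reln and Lrp8, were also low here. For Vldlr, embryo 3 was low at 69.8 CPM, but embryo 4 (92.6 CPM) was close to embryo 1 (94.3 CPM). Among the 5 mutants, the order of the summed list was the order of Vldlr. The highest gene of that sum in mutants was Otx2, at 110 ± 20.6 CPM (SD, n = 5). Of the list's 7 genes, 6 were tested and 1 was lower (16.7%, against 2.29% of all genes), Ttr, the transthyretin gene (log2 fold change -3.42, edgeR FDR = 0.0512). In mutant embryos 1 to 5 Ttr was at 1.56, 1.14, 15.1, 8.14 and 10.2 CPM, which is not the order of Vldlr. Ttr had 21 counts or more in every library, and Kl was below the count filter with 0 to 11 counts.

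A covariate was made as the mean log2 CPM of this list's tested genes, which weighs each gene alike and differs from the summed level. It had a correlation of -0.653 with genotype. With this covariate the log2 fold change of Reln was -0.67 and no longer passed (edgeR FDR = 0.353). Dab1 remained lower at -0.77 (edgeR FDR = 0.0579). Lrp8 then passed as higher, at 0.66 (edgeR FDR = 0.0244), and Vldlr was at 0.54 (edgeR FDR = 0.147). The called CR markers lost their calls too, with Trp73 at -0.46 (edgeR FDR = 0.284), Lhx1 at -1.23 (edgeR FDR = 0.2) and Lhx5 at 1.49 (edgeR FDR = 0.331). The call on Lrp8 therefore turns on how the choroid plexus signal is treated, while the direction of each member was the same in both fits. The share of the capture that was choroid plexus was not measured in another way.

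**Figure D4:**
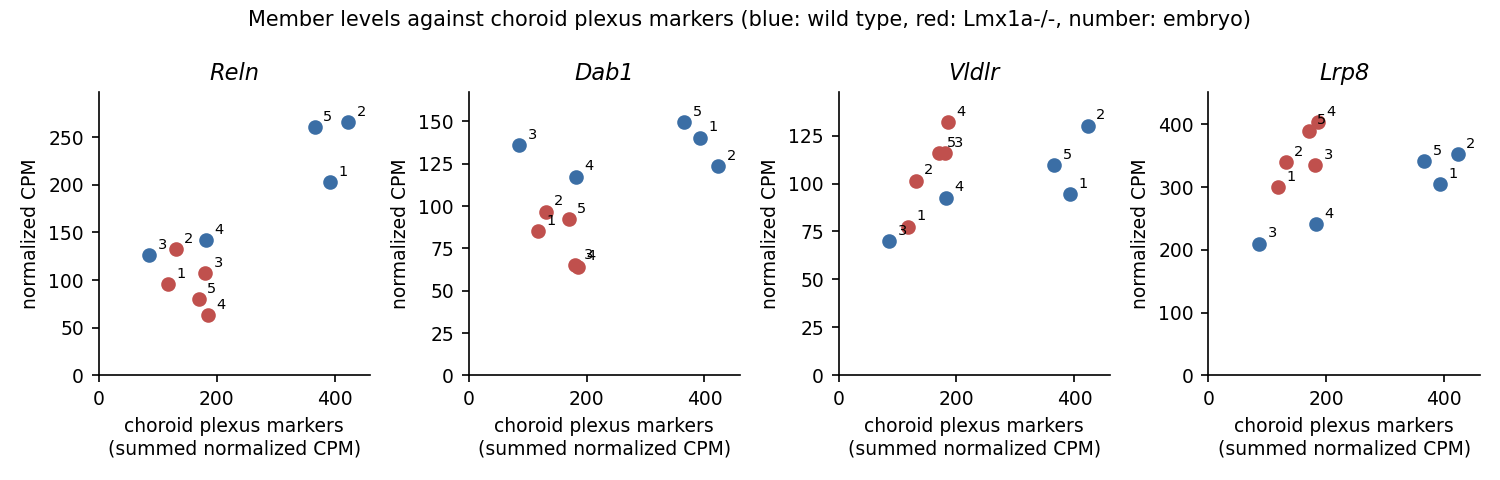
Normalized CPM of each member (vertical axes, from 0) against the summed normalized CPM of the choroid plexus markers (horizontal axes) in wild-type (blue) and Lmx1a-/- (red) libraries, numbered by embryo. At 85.7 and 182 CPM of the markers, wild-type embryos 3 and 4 have the lowest wild-type Reln and Lrp8, while their Dab1 stays above all mutants.

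Other marker lists were compared in the same way, with 2.29% of all genes called lower and 1.72% called higher as background. Radial glia markers summed to 1534 to 2245 CPM in wild type and 2560 to 3197 CPM in mutants, with 1 of 7 genes called, Vim, which was higher. Meningeal and mesenchymal markers summed to 263 to 857 and 212 to 465 CPM, with Lum and Dcn of 6 genes lower, and red blood cell markers to 516 to 1285 and 190 to 479 CPM, with none of 6 called. GABAergic interneuron markers summed to 28.8 to 73.7 and 36 to 198 CPM, with Dlx5 of 7 genes higher. General neuronal markers overlapped, at 548 to 864 and 622 to 924 CPM with 0 of 6 called, as did cortical glutamatergic markers at 297 to 484 and 268 to 413 CPM with 0 of 5 called. Endothelial markers (17.2 to 66 and 16.4 to 38.4 CPM, 0 of 6) and microglial markers (10.1 to 21.1 and 10.2 to 21.7 CPM, 0 of 4) were low. The part of these cells in the results on Reln and Dab1 was not tested.

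The other genes of the pathway were read from 7 lists with 79 genes in all, every one of which was tested. Of these, 6 were lower (7.59%, against 2.29% of all genes) and 1 was higher (1.27%, against 1.72%), and in 7 the genotypes did not overlap (8.86%, against 4.44%). The median log2 fold change of the 79 was -0.01. The lists, too, were written with earlier results known, so these shares are a description. With Xist as a covariate none of these 7 genes was called, but that fit called only 24 lower and 1 higher gene over all genes. With wild-type embryo 1 alone against the mutants, each of the 7 kept its direction. The log2 fold changes were then -1.39 for Adamts3, -2.02 for Adamts5, -0.97 for Clu and -1.25 for Lrp1b. They were -0.27 for Src, -0.59 for Elob and 0.48 for Socs6.

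Among genes for reelin cleavage and for other ligands of its receptors, 3 of 10 were lower (30%, against 2.29% of all genes). None was higher, and the median log2 fold change was -0.26. Adamts3, a protease that cuts reelin in its N-terminal part, was at 10.7, 26.3, 9.15, 6.85 and 12.6 CPM in wild-type embryos 1 to 5 and at 2.13, 5.43, 3.88, 3.79 and 5.39 CPM in mutant embryos 1 to 5. The genotypes did not overlap although wild-type embryo 2 stood well above the rest of its group, and the log2 fold change was -1.67 ± 0.354 (SE, edgeR FDR = 0.0274). Adamts5, a related protease that acts on matrix proteoglycans and can also cut reelin, was at 41.5, 58.3, 16.9, 28.9 and 63.4 CPM in wild type and at 9.28, 5, 12, 11.2 and 13.9 CPM in mutants, in the order of embryos 1 to 5. Wild-type embryos 3 and 4 were the low ones, as for Reln, and still lay above all mutants (log2 fold change -2.02 ± 0.338 SE, edgeR FDR = 0.00759). The other members of this protease group did not pass: Adamts4 was at 2.13 ± 0.588 and 2.36 ± 1.05 CPM (SD, n = 5 each, edgeR FDR = 0.891) and Adamts2 at 2.63 ± 1.39 and 1.49 ± 0.722 CPM (SD, n = 5 each, edgeR FDR = 0.385).

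Clu, which encodes clusterin, a secreted lipoprotein component that binds both reelin receptors, was lower. It was at 66.4, 54.3, 43.1, 51.1 and 71.8 CPM in wild-type embryos 1 to 5 and at 30, 31.3, 40.2, 41.2 and 26.8 CPM in mutant embryos 1 to 5. The groups were separate but close, with wild-type embryo 3 just above mutant embryo 4, and the log2 fold change was -0.76 ± 0.156 (SE, edgeR FDR = 0.0241). Adamts3 and Clu lost their calls with the choroid plexus covariate (edgeR FDR = 0.266 and 0.29), while Adamts5 kept its own at a smaller log2 fold change of -0.95 (edgeR FDR = 0.0333).

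Of 8 other LDL receptor family genes 1 was lower (12.5%, against 2.29% of all genes), Lrp1b, which encodes a very large receptor of the family. Lrp1b was at 457, 427, 267, 402 and 637 CPM in wild-type embryos 1 to 5 and at 177, 198, 194, 224 and 175 CPM in mutant embryos 1 to 5. The groups were separate and the mutants tight, with a log2 fold change of -1.18 ± 0.172 (SE, edgeR FDR = 0.00309), which was -0.77 with the choroid plexus covariate (edgeR FDR = 0.0872). The median of this list was -0.01. Beside Lrp1b the smallest p value was that of Lrp4, a receptor of nerve-muscle synapses and Wnt modulation (log2 fold change 0.40, edgeR FDR = 0.184). None of the 7 genes for receptor folding and turnover was called. Mesd, a chaperone of the family, was at 104 ± 8.44 and 140 ± 29.3 CPM (SD, n = 5 each, log2 fold change 0.43, edgeR FDR = 0.105). Nr1h2 and Nr1h3, which encode the liver X receptors that regulate degradation of these receptors, were at -0.31 (edgeR FDR = 0.196) and 0.78 (edgeR FDR = 0.614).

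Downstream of the receptors, 1 of 22 genes for Dab1 kinases and signal relay was lower (4.55%, against 2.29% of all genes). The list median was -0.03. Src, one of the kinases that phosphorylate Dab1, was at 22.1, 28.1, 22.3, 27.2 and 27.9 CPM in wild-type embryos 1 to 5 and at 18.3, 19.9, 19, 15.3 and 19.1 CPM in mutant embryos 1 to 5. The groups were separate (log2 fold change -0.48 ± 0.116 SE, edgeR FDR = 0.053), and the call was lost without wild-type embryo 2 (edgeR FDR = 0.119) or mutant embryo 4 (edgeR FDR = 0.118), and with the choroid plexus covariate (edgeR FDR = 0.307). Fyn, the kinase most closely tied to Dab1, was at 52.7 ± 6.39 and 62.2 ± 6.43 CPM (SD, n = 5 each, edgeR FDR = 0.268). Gsk3b, a kinase that acts on microtubule proteins, was at 418 ± 24.2 and 495 ± 53.2 CPM (SD, n = 5 each, edgeR FDR = 0.144), and Cfl1, the cofilin gene of actin turnover, at 353 ± 44.4 and 288 ± 36.9 CPM (SD, n = 5 each, edgeR FDR = 0.168).

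None of 12 genes of the Lis1 and Cdk5 arm, which ties the pathway to microtubules and to parallel control of migration, was called, and the list median was -0.01. Mapk8, which encodes the kinase JNK1, had separate groups at 76.8 ± 2.9 and 93.2 ± 9.57 CPM (SD, n = 5 each, log2 fold change 0.28). It just missed the threshold in this fit (edgeR FDR = 0.102), whereas the paper lists it among the upregulated genes associated with CR cells. The log2 fold changes of the microtubule-associated genes Mapt and Dcx were 1.05 (edgeR FDR = 0.249) and 0.29 (edgeR FDR = 0.58). The core members were close between genotypes, Pafah1b1, the Lis1 gene, at 293 ± 28.5 and 285 ± 33.5 CPM (SD, n = 5 each, edgeR FDR = 0.88) and Cdk5 at 9.3 ± 2.04 and 10.6 ± 2.08 CPM (SD, n = 5 each, edgeR FDR = 0.658).

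Activated Dab1 is marked for degradation by a Cul5 ubiquitin ligase. Of 8 genes listed for this turnover, 1 was higher (12.5%, against 1.72% of all genes) and 1 was lower (12.5%, against 2.29%). Socs6, which encodes a substrate receptor of the ligase, was higher, with 70.8, 81.3, 60.4, 63.6 and 89.5 CPM in wild-type embryos 1 to 5 and 87.3, 101, 90.6, 107 and 110 CPM in mutant embryos 1 to 5. Only wild-type embryo 5 reached into the mutant range (log2 fold change 0.44 ± 0.114 SE, edgeR FDR = 0.0682). Elob, the elongin B gene, was lower, from 77.4 ± 9.27 to 60 ± 6.78 CPM (SD, n = 5 each, log2 fold change -0.37, edgeR FDR = 0.0907). Both calls were marginal, since Socs6 lost its call in 6 of 10 fits without 1 embryo (those without wild-type embryo 1, 3 or 4 or mutant embryo 2, 4 or 5, edgeR FDR = 0.105 to 0.155) and Elob in 8 of 10 (all but those without wild-type embryo 5 or mutant embryo 3, edgeR FDR = 0.105 to 0.196). Elob was also not called with the choroid plexus covariate (edgeR FDR = 0.294). Socs7, a second substrate receptor, was at 44.5 ± 4.16 and 36.1 ± 4.38 CPM (SD, n = 5 each, edgeR FDR = 0.156), and Cul5 itself was at 122 ± 7.4 and 127 ± 7.57 CPM (SD, n = 5 each, edgeR FDR = 0.693).

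Among 12 adhesion and membrane partners none was called and the median was 0.04. Itgb1, the beta subunit of integrins that bind matrix, had separate groups at 158 ± 6.58 and 138 ± 5.03 CPM (SD, n = 5 each, edgeR FDR = 0.124). Cdh2, the N-cadherin gene, was at 470 ± 63.7 and 555 ± 22.1 CPM (SD, n = 5 each, edgeR FDR = 0.183), and Itga3, an integrin subunit, at 14.3 ± 8.61 and 7.56 ± 2.33 CPM (SD, n = 5 each, edgeR FDR = 0.189).

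**Figure D5:**
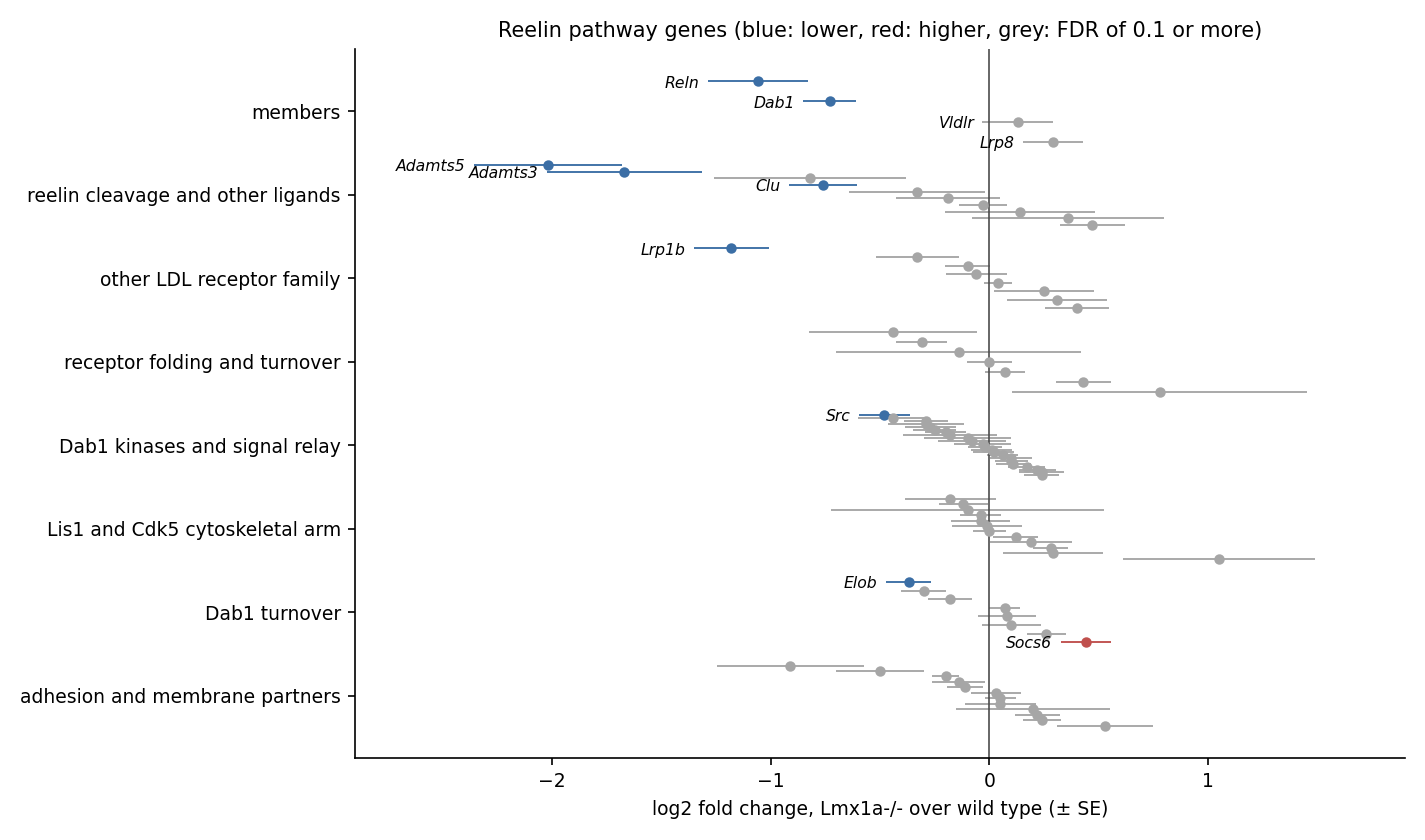
Log2 fold change of Lmx1a-/- over wild type (horizontal axis, ± SE) for the 4 members and 79 other genes of the pathway, by list, blue where lower, red where higher and grey where the edgeR FDR was 0.1 or more. The called genes other than the members are Adamts3, Adamts5, Clu, Lrp1b, Src and Elob, all lower, and Socs6, higher.

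The genes near the members were read against the 4.02% called over all genes. Within 1000000 bases of Reln 35 other genes were tested and none was called. Around Dab1 1 of 12 was called, Plpp3 (log2 fold change 0.71, higher), and around Lrp8 1 of 45, Prpf38a (0.39, higher). Dab1 and Lrp8 are 3057416 bases apart on chromosome 4, and 1 of the 25 genes tested between them, Plpp3, was called. Around Vldlr 1 of 8 was called, Gm20407 (-1.13, lower). The members overlap 11 annotated genes. Of these, Gm16110, Gm16111, Gm16112, Gm16113, Gm19666 and Dnaja1-ps at Reln, Gm12717 and Gm12719 at Dab1, and Lrp8os1 and Lrp8os2 at Lrp8 share no exon bases with them, and none was called, 3 being below the count filter. The other is Gm10475, which lies antisense to Reln over 246 of its exon bases. Gm10475 had 0.742% of the counts of Reln (log2 fold change -1.09, edgeR FDR = 0.169), and the strand setting of the counting was not given in the sources used here.

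Genes whose level followed that of a member over the embryos were sought among 9268 genes with a mean of at least 10 CPM, by Pearson's r of log2 CPM centred on the genotype means over 10 libraries. For Reln the highest were Manf (r = 0.95), Zfp780b (0.95), Cbx5 (0.94), Prpf40b (0.94) and Fam214a (0.93). None of these 5 was called between genotypes, with log2 fold changes of -0.22 to 0.21. For Dab1 they were Ccni (0.96), Dgkb (0.94), Myt1l (0.94), Cadm3 (0.93) and Elovl4 (0.92), of which Dgkb was called, in the direction opposite to Dab1 (log2 fold change 1.55, edgeR FDR = 0.000131). For these 10 genes, likeness within genotypes did not go with a like difference between them. They were picked for the highest r among 9268 genes over 10 libraries. Whether such values exceed those of unrelated genes was not tested.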

How the data were processed

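Libraries of 10 embryos, 5 of each genotype as labelled, were sequenced as paired ends. Per the study's methods and its processing notes, the authors used Trimmomatic for trimming and STAR 2.7.1a for alignment to GRCm38, and made the deposited read counts per gene with HTSeq 0.11.2, without normalization. Of 52508 rows, 281 exact repeats were dropped. Library totals of 19145952 to 36462780 counts gave each member at least 1779 counts, so the spread between embryos set the precision.

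A gene entered the test if 3 or more libraries held 10 counts or more. The tool was edgeR 4.0.16 (R 4.3.3, TMM, trended dispersion, quasi-likelihood test, Benjamini-Hochberg FDR under 0.1), without covariates. The SE was obtained as the absolute log2 fold change over the root of F. Ratios were compared by exact permutation at 0.05. The procedures were tested on simulated data. Positions are from GENCODE M21 (GRCm38) and promoter sequences from RefSeq (GRCm38.p6), which held all 4 members. The alternatives tried were other scalings, filters, tests (DESeq2 1.42.0, likelihood ratio), dispersions, covariates, a replicate block and libraries left out.

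The members and lists were chosen with earlier results of these data known. Named genes were the 4 members, called genes of each list or otherwise those of smallest p up to 3 a list, genes overlapping a member, and the 5 genes most like Reln and Dab1. Adamts2, Adamts4, Fyn, Cul5, Pafah1b1 and Cdk5 were added for their roles after their values were seen. One listed gene that the rule names is not reported here.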

Additional observations from a re-analysis of the deposited data

How the results depend on the processing

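Across 16 other settings of the fit, every member kept its direction. Reln kept its call in 13, Dab1 in 14, Vldlr stayed uncalled in 16 and Lrp8 in 15. With Xist as a covariate, whose correlation with genotype was -0.83, the log2 fold changes were -1.16 for Reln (edgeR FDR = 0.372) and -0.84 for Dab1 (edgeR FDR = 0.217), with 24 lower and 1 higher gene over all genes and 0 lower and 0 higher of the pathway. With the choroid plexus covariate Reln was at -0.67 and Lrp8 passed at 0.66, with 118 lower and 154 higher genes and 2 lower and 2 higher of the pathway. With wild-type embryo 1 alone against the mutants Reln was at -1.09 and Dab1 at -0.81, with 86 lower and 44 higher genes, 2 lower of the pathway, and a Vldlr to Lrp8 log2 difference of -0.03. Fewer samples enter that fit. For the covariates the cause was not tested. DESeq2 called 976 lower and 790 higher genes and 8 higher of the pathway, the likelihood ratio test 805 lower genes and 3 higher of the pathway, and an FDR under 0.05 left 251 lower and 197 higher genes with 0 higher of the pathway. Higher pathway genes numbered 3 with upper quartile scaling, the CPM filter, robust dispersions or the newer quasi-likelihood method, 4 with library size only, and 2 without a filter or without mitochondrial genes. The Reln difference from CR markers was -0.53 without Lhx5.

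Embryo numbers did not pair the genotypes: same-numbered embryos had correlations of -0.082 to 0.00915, and 0 of 5 embryos correlated best with their own number. With the replicate block, Reln was at -1.04 (edgeR FDR = 0.0235) and Dab1 at -0.74 (edgeR FDR = 0.0112), and 248 genes were higher. Src (edgeR FDR = 0.118) and Elob (edgeR FDR = 0.137) were not called with it.

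Leaving out 1 embryo at a time, log2 fold changes ranged from -1.20 to -0.94 for Reln, -0.80 to -0.66 for Dab1, 0.02 to 0.24 for Vldlr and 0.19 to 0.36 for Lrp8. Lower genes numbered 261 (without mutant embryo 4) to 604 and higher genes 190 (without mutant embryo 4) to 455. Lower pathway genes numbered 4 to 8 and higher ones 0 (without mutant embryo 5) to 3 (without wild-type embryo 5 or mutant embryo 3). The log2 differences ranged from -0.45 to -0.15 for Reln to Dab1, -1.32 to -0.96 for Reln to Vldlr, -1.48 to -1.15 for Reln to Lrp8, -1.02 to -0.72 for Dab1 to Vldlr, -1.15 to -0.92 for Dab1 to Lrp8, -0.22 to -0.11 for Vldlr to Lrp8 and -0.95 to -0.68 for Reln minus CR markers.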
